A study of Mus musculus with 2 samples.

Results

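The AP-1 family genes described here are Fos, Fosb, Fosl2, Jun, Junb, Jund, Atf3 and Batf, chosen by name as 8 of the 32285 genes counted in both libraries. They were followed across the CD4 T cell states of visceral fat (VAT, visceral adipose tissue) in mice. One library came from mice lacking CD27 (CD27_KO, labelled CD27-/- in the protocols) and 1 from wild-type mice (WT). CD27, a member of the TNF receptor family, gives T cells a costimulatory signal when it meets its ligand CD70. For both groups TCRb+ CD4+ cells were obtained by flow sorting of the VAT stromal vascular fraction (what is left without the adipocytes), and profiled by droplet single-cell RNA sequencing. Both groups are C57BL/6, and the labels give no age, sex or diet. Each library is a pool of mice, 10 per the protocols, where it is unclear whether 10 went into each pool. With 1 library per group there was no spread between mice or libraries to set a difference against, so no test was made. All intervals are exact, at 95%, and cover counting error only, with each unique molecular identifier (UMI) taken as independent.

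AP-1 factors are dimers of basic leucine zipper proteins. FOS-type proteins pair with JUN-type proteins and bind short DNA motifs, and in T cells they act with NFAT downstream of the T cell receptor and CD28. Fos, Fosb, Jun, Junb and Atf3 are classical immediate early genes, transcribed within minutes of receptor signals or of cell stress, and enzymatic digestion of a tissue is itself known to switch them on. BATF lacks a transactivation domain and pairs with JUN proteins and IRF4, and is needed for Th17 cells and for tissue Treg cells.

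The T cells numbered 6788 in CD27_KO and 6202 in WT, with 19784355 and 15824202 UMIs and medians of 2200 and 1930.5 UMIs per cell. Ribosomal protein genes took 27.5% of T cell UMIs in CD27_KO and 32.1% in WT. Cd27 gave 15 UMIs in CD27_KO and 2072 in WT T cells. The libraries shared 12 barcode sequences. Cd3e was seen in 79.9% of CD27_KO and 75.4% of WT T cells, and Cd4 in 30.8% and 25.3%. Clusters were built without the 8 members and without the T cell receptor induced, other immediate early and heat shock lists given below, so that none of these genes was used to draw a cluster. Genes found only in the other lists stayed eligible. Among them are Il4 and Csf2, cytokine genes with AP-1 sites that also served to name the Th2-like class, so that class was not drawn independently of such genes. Of the clusters, 4 named classes had at least 200 cells in each library: Th2-like (1125 cells in CD27_KO and 292 in WT; led by Calca, Csf2, Tnfsf11 and Il4, with innate type 2 cells as the next closest type), Treg-like (281 and 777; Cxcl2, Ikzf2, Foxp3, Ctla4), Th1-like (2877 and 1406) and naive-like (755 and 2206). The naive-like class joins a Ccr7 and Dapl1 cluster (317 and 1325 cells) and a Slamf6 cluster (438 and 881 cells), so the libraries fill it differently, and the Slamf6 cells went unnamed or were named memory or follicular helper in some other clusterings. The Th1-like cells of CD27_KO lay mostly in a cluster led by P2rx7 and Lyst, those of WT in one led by Ly6c2 and Ccl5. An unnamed cluster with Foxp3, Areg and Il1rl1 and many UMIs per cell (cluster 1; 621 and 662 cells) and one led by Prr7 and Bcl2a1d (cluster 11; 576 and 164 cells) are given beside them.

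In mm10 (GENCODE vM21), Fos is at chr12:85473890-85477273, Batf at chr12:85686669-85709087, Fosb at chr7:19302696-19310051, Fosl2 at chr5:32135801-32157842, Jun at chr4:95049034-95052222, Junb at chr8:84974484-84978718, Jund at chr8:70698949-70700616 and Atf3 at chr1:191170296-191218039. No other gene held a near-identical stretch (95% over at least 60 bases) to the last 500 bases of any member's transcripts. Junb, Jund, Jun and Atf3 each overlap 1 gene on the opposite strand. For Junb it is Prdx2, with 4809 UMIs over all T cells, and for Jun and Jund antisense RNAs with 19 and 42 UMIs. The labels and headers do not state whether counting used strand, so reads in these overlaps could belong to either gene.

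The members' own promoters were searched for the motifs that AP-1 and ATF proteins bind, because several of these genes are known to be regulated by their own family. All 8 had an entry in RefSeq (GRCm38.p6), and the 250 bases before each start were read on both strands. TGACG, the core that ATF and CREB proteins bind, was found before the start of 5 of 8 members, against 17.8% of all 32851 promoters. TGACNTCA was found in Jun, against 7.49% of promoters, and TGANTCA, the classical AP-1 site, in none of the members, against 6.75%. No TGACG lay inside a TGACNTCA in these members. The stretches below, 1 per gene, are on the gene's strand from 5′ to 3′ with the match in capitals; in Atf3 the motif runs on the opposite strand and reads as CGTCA.
Jun, chr4:95052243-95052284, minus strand: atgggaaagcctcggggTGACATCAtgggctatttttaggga
Fos, chr12:85473807-85473845, plus strand: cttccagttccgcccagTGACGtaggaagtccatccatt
Fosb, chr7:19310084-19310122, minus strand: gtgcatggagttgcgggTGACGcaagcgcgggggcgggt
Junb, chr8:84978833-84978871, minus strand: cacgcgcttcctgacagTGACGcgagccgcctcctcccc
Atf3, chr1:191183334-191183357, minus strand: agctattaatagcattaCGTCAgc
Batf, chr12:85686605-85686643, plus strand: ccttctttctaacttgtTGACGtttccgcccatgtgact
The matches begin 45 bases before the start in Jun, 66 in Fos, 60 in Fosb, 106 in Junb, 7 in Atf3 and 98 in Batf. Fos holds another TGACG 129 bases before its start. The starts are RefSeq's. For Atf3 the RefSeq start lies 34706 bases inside the GENCODE gene span given above, so its match precedes an internal start of that span. For Fosl2 the RefSeq start lies 671 bases inside the span, and for Jund outside it. A match shows only that these letters stand in the window.

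Across the 4 named classes, the FOS-type genes, Junb and Atf3 were highest in Th2-like cells in both libraries. Jun and Jund were highest there in CD27_KO but in Treg-like cells in WT, and Batf was highest in Treg-like cells in both. Levels are in CPM, the gene's UMIs summed over the cells and scaled to the same total of UMIs in each sum. Fos, the classical partner of JUN, was at 1652 CPM in CD27_KO and 1754 CPM in WT Th2-like cells, against 297 and 272 CPM in Th1-like and 229 and 281 CPM in naive-like cells. Fosb, its close relative, was at 720 and 664 CPM in Th2-like cells of CD27_KO and WT, against 61.8 and 58.1 CPM in naive-like cells. Fosl2, which encodes FRA2, was at 372 and 298 CPM in Th2-like and 38.4 and 55.1 CPM in naive-like cells. For these 3 genes the naive-like and Th1-like values of both libraries lay below every Th2-like value, with intervals that did not overlap.

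Atf3, a stress- and signal-induced ATF protein that can repress its targets, was at 293 CPM in CD27_KO and 355 CPM in WT Th2-like cells, and at 5.16 and 5.31 CPM in Th1-like and 5.40 and 4.55 CPM in naive-like cells. The low values rest on 37 and 17 UMIs in Th1-like and 9 and 21 UMIs in naive-like cells, a level taken below as background, so no fold is given. Set against all other T cells of its library, Atf3 was the gene with the 18th highest ratio of 8857 in CD27_KO Th2-like cells and the 19th of 8219 in WT ones, as a description. The corresponding places were 71 and 69 for Fos, 70 and 84 for Fosb and 98 and 121 for Fosl2.

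The JUN genes spread less over the classes. Junb, a JUN protein needed for Th17 and effector Treg cells, was at 5300 CPM in CD27_KO and 5439 CPM in WT Th2-like cells, and at 1639 and 1833 CPM in naive-like cells. Jund, the JUN gene with the most steady transcription, was at 2146 and 2134 CPM in Th2-like cells against 765 and 767 CPM in naive-like cells. Its highest class in WT was Treg-like, at 2800 CPM, where CD27_KO had 1620 CPM. Jun, the prototype of the family, was highest in CD27_KO in Th2-like cells (137 CPM, against 177 CPM in WT) and highest in WT in Treg-like cells (89.3 CPM in CD27_KO and 203 CPM in WT). Th1-like cells held the least Jun in both, 56.0 CPM in CD27_KO and 51.2 CPM in WT.

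Batf followed another order. It was highest in Treg-like cells of the 4 classes, at 62.8 CPM in CD27_KO and 97.0 CPM in WT, and in WT it was lowest in Th2-like cells, at 24.3 CPM, where CD27_KO had 41.4 CPM. In CD27_KO the neighbours in this order, Th1-like (41.9 CPM) and Th2-like (41.4 CPM), did not differ beyond their intervals. The highest Batf level of any class was in the small memory or follicular helper-like cluster, 206 CPM over 26 CD27_KO cells and 189 CPM over 82 WT cells, on 18 and 39 UMIs.

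**Figure D1:**
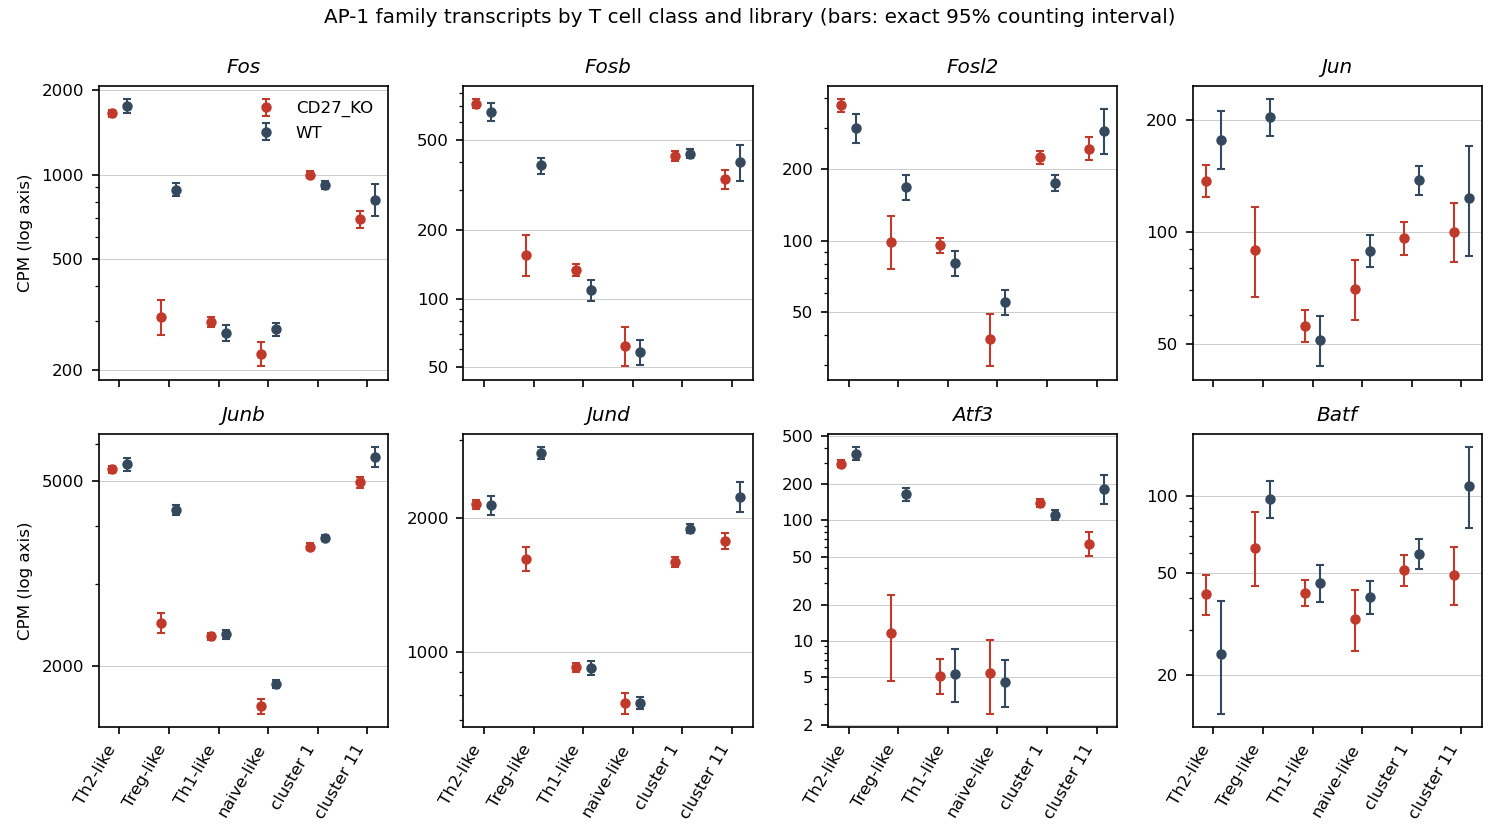
Level of each AP-1 member in CPM (log axis) in 4 named classes and 2 unnamed clusters, CD27_KO (red) left of WT (blue-grey); points are UMIs summed over the cells and bars are exact 95% counting intervals. Fos, Fosb, Fosl2 and Atf3 peak in Th2-like cells in both libraries, and WT Treg-like cells lie above CD27_KO ones for all 8 members.

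Of the 8 members, 8 had a highest class at least 1.5-fold above their median class in CD27_KO and 8 in WT, where 20.8% of all genes in CD27_KO and 19.8% in WT passed the same bar. Batf in CD27_KO, at 1.51-fold, and Jun in WT, at 1.53-fold, were close to that bar. Under 6 alternatives the count was 4 to 7 of 8 in CD27_KO and 6 to 7 of 8 in WT. With at least 1000 genes per cell and at most 5% mitochondrial UMIs, Th2-like cells stood in clusters of 643 CD27_KO and 117 WT cells and of 467 and 66 cells. Together these held fewer than the 200 WT cells asked of a class, so Th2-like cells were left out of the comparison. Over the other 3 classes the count was 4 of 8 in CD27_KO and 7 of 8 in WT. Cluster 11 and cluster 1 were also high. Fos was at 692 CPM in CD27_KO and 814 CPM in WT in cluster 11, and at 999 and 918 CPM in cluster 1. Junb in cluster 11 was at 4967 and 5635 CPM, near its level in Th2-like cells.

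Patterns over the 8 sums (4 classes in 2 libraries) were compared by Pearson's r of log2(CPM + 10), as a description without a test, since the points share libraries and depth. The genes most like Fos were Atf3 (0.990), Ptpn13 (0.982), a phosphatase, and Socs1 (0.980), a brake on cytokine signalling. Fosb went with Tnfaip3 (0.993), which encodes the NF-kB inhibitor A20, with Junb (0.992) and with Fosl2 (0.985). Fosl2 went with Mpp7 (0.993), Tnfaip3 (0.986) and Fosb. Junb went with Fosb, Arf4 (0.986) and Siva1 (0.984), and Jund with Nr4a1 (0.990), a T cell receptor induced nuclear receptor, Glul (0.989) and Zc3h12a (0.987). Jun was nearest to Mast4 (0.974), Snhg15 (0.954) and Tpd52 (0.942), Atf3 to Gm17056 (0.993), Fos and Arf4 (0.987), and Batf to Stx11 (0.939), Khdrbs1 (0.937) and Lamp2 (0.937). Against the other 7 members Batf had r between −0.09 and 0.39.

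The members were also counted cell by cell, after each cell was thinned to 1300 UMIs, which left out 54 CD27_KO and 536 WT T cells. Before thinning, a Fos UMI was seen in 73.5% of CD27_KO and 68.8% of WT Th2-like cells, and after it in 61.3% and 58.0%. The thinned shares in naive-like cells were 15.4% and 21.3%. Atf3 was seen in 16.4% of CD27_KO and 20.6% of WT Th2-like cells (22.2% and 25.3% before thinning), against 0.133% and 0.585% of naive-like cells, whose median depths were 2064 and 1848 UMIs. The low level of naive-like cells is taken as the background for Atf3, and the Th1-like shares of 0.492% and 0.556% lie near it. Whether it is free RNA was not tested. Those UMIs lay mostly in the Slamf6 cluster (9 in CD27_KO and 18 in WT), with 0 and 3 in the Ccr7 cluster. Of Fos, Fosb, Fosl2, Jun and Atf3, none was seen in 14.9% of CD27_KO and 16.01% of WT Th2-like cells, and in 74.5% and 64.8% of naive-like cells. At least 3 of the 5 were seen in 22.8% and 22.1% of Th2-like cells, and in 1.06% and 0.975% of naive-like cells.

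Fos and Fosb were seen together in 12.4% of CD27_KO T cells and 9.60% of WT T cells, 2.04 and 1.99 times the product of their separate shares. Within Th2-like cells this ratio was 1.19 in CD27_KO and 1.13 in WT, and within Th1-like cells 2.38 and 2.16. The highest value it can take falls as the separate shares rise. Fos was seen in 61.3% and 58.0% of Th2-like but 19.2% and 21.2% of Th1-like cells, so these ratios do not compare the classes. Fos and Jun were seen together in 3.43% and 4.55% of T cells, 1.54 and 1.42 times their product. Fos and Atf3 within Th2-like cells were together in 10.2% and 10.7%, 1.01 and 0.892 times their product, so within that class a cell with Fos held Atf3 about as often as any other.

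**Figure D2:**
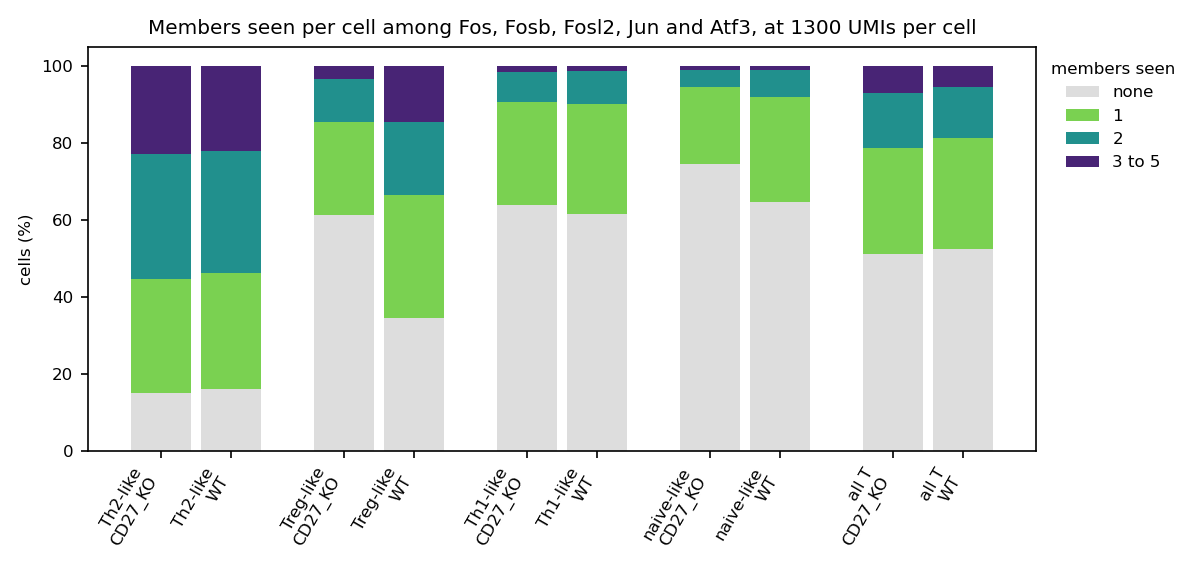
Percent of cells in which none, 1, 2 or 3 to 5 of Fos, Fosb, Fosl2, Jun and Atf3 were seen after thinning to 1300 UMIs, by class, with CD27_KO left of WT in each pair. Both Th2-like bars hold the fewest cells with none (14.9% and 16.01%), and the Treg-like pair differs most (61.3% in CD27_KO and 34.5% in WT).

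Over all T cells, none of the 8 members was 1.5-fold apart between CD27_KO and WT on at least 100 UMIs. Of 9754 genes 9.88% were (7.02% higher and 2.86% lower in CD27_KO), so a count of 0 is near the background. Fosl2 was furthest on the higher side, at 169 CPM in CD27_KO and 118 CPM in WT, a log2 ratio of CD27_KO over WT of 0.52 (interval 0.44 to 0.61). Fosb was at 292 and 230 CPM (0.34), Atf3 at 82.2 and 65.2 CPM (0.33) and Fos at 676 and 568 CPM (0.25). Jun was furthest on the lower side, at 81.2 CPM in CD27_KO and 107 CPM in WT (−0.39, interval −0.49 to −0.29), followed by Batf at 45.7 and 54.3 CPM (−0.25). Junb (3117 and 2911 CPM; 0.10) and Jund (1317 and 1380 CPM; −0.07) were nearest to equal.

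These differences moved with scaling and with the make-up of the libraries. The log2 ratio of the median gene was 0.17, and relative to that Fosl2 was at 0.35, Jun at −0.56, Batf at −0.42 and Junb, changing sign, at −0.07. Th2-like cells were 16.6% of T cells in CD27_KO and 4.71% in WT, Treg-like cells 4.14% and 12.5%, and naive-like cells 11.1% and 35.6%. With class shares made equal between the libraries, Fos was at −0.22, Fosb at −0.02, Junb at −0.15 and Atf3 at −0.59, all with the sign turned, while Fosl2 stayed at 0.11, Jun at −0.38 and Batf at −0.13. Atf3 was then past 1.5-fold, as 1 of 8. In thinned cells the shares had intervals that did not overlap for 3 of 8 members, where 25.2% of all genes did: Fosb in 20.003% of CD27_KO and 16.5% of WT T cells (30.5% and 24.3% before thinning), Fosl2 in 15.9% and 11.7% (27.4% and 19.2%) and Jun in 7.32% and 10.96% (13.5% and 16.9%).

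Summed over the Treg-like class, all 8 members were at least 1.5-fold lower in CD27_KO, where 6.01% of 2781 genes were lower, 8.23% higher and 14.2% apart. Fos was at 309 CPM in CD27_KO (187 UMIs) and 881 CPM in WT (1362 UMIs), a log2 ratio of −1.51 (−1.74 to −1.29). Fosb was at 155 and 385 CPM (−1.31, −1.64 to −0.99), and Jun at 89.3 and 203 CPM (−1.19, −1.63 to −0.77). Junb was at 2479 and 4334 CPM (−0.81, −0.89 to −0.72). These intervals do not overlap between the libraries for any of the 4 genes.

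Atf3 in this class was seen mostly in WT, with 7 UMIs and 11.6 CPM in CD27_KO and 255 UMIs and 165 CPM in WT (−3.83, −5.16 to −2.77). Jund was at 1620 and 2800 CPM (−0.79, −0.89 to −0.69), Fosl2 at 99.2 and 168 CPM (−0.76, −1.19 to −0.35) and Batf at 62.8 and 97.0 CPM (−0.63, −1.18 to −0.11). Against the other T cells of the same library, Treg-like cells had a Fos ratio of −1.15 in CD27_KO and 0.72 in WT, and an Atf3 ratio of −2.87 in CD27_KO and 1.5999 in WT. Thinned to 1300 UMIs, Fos was seen in 19.3% of CD27_KO and 39.1% of WT Treg-like cells, and Atf3 in 0.743% and 12.0% (1.78% and 14.0% before thinning). The Atf3 share in CD27_KO Treg-like cells lay near that of naive-like cells, which were taken as background. Atf3 ratios that rest on 7 or fewer CD27_KO UMIs, here and below, give a direction and no firm size.

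That count depends on which cells are summed. The libraries fill the kinds of Treg-like cell unequally, and the part of this in the count was not tested. At a finer clustering (resolution 1.5) the cells called Treg-like, a larger set that takes in cells of cluster 1, fell into 3 clusters. One was led by Foxp3, Ctla4, Ikzf2 and Lrrc32 (202 CD27_KO and 201 WT cells), one by Cxcl2, AA467197, Areg and Il10 (86 and 583 cells), and one, of deeper cells nearly all from cluster 1, by Cxcl2, Ikzf2 and Foxp3 (220 and 598 cells).

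Within the Foxp3 and Ctla4 cluster, which both libraries filled about equally, Fos was at 242 CPM in CD27_KO and 261 CPM in WT (−0.11, −0.52 to 0.30). Junb there was at 1504 and 2199 CPM (−0.55, −0.70 to −0.40), while Jund was the other way, at 1159 and 952 CPM (0.28, 0.087 to 0.48). None of the 3 members with at least 100 UMIs was 1.5-fold apart; Jun was at 68.6 and 165 CPM on 30 and 63 UMIs (−1.26, −1.94 to −0.62). Atf3 gave 0 and 3 UMIs.

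Within the Cxcl2 and AA467197 cluster 4 of 8 were lower: Fos (465 and 1089 CPM; −1.23, −1.56 to −0.91), Fosb (−1.002), Jun (−0.76) and Atf3 (37.4 and 215 CPM on 7 and 254 UMIs; −2.52, −3.85 to −1.46). In the cluster of deeper cells only Fosb passed 1.5-fold of the 8 (269 and 412 CPM; −0.62), and Fos was at 614.5 and 865 CPM (−0.49). These divisions, and the other ways of drawing Treg cells that follow, were chosen after the data were seen. Their counts have no share over all genes beside them, which was taken only for the main Treg-like class.

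In the 5 other clusterings (other resolutions, other cell filters, members included) the count over all Treg-like cells was 4 of 8 in each. The 4 were Fos, Fosb, Jun and Atf3. These clusterings redraw the same 2 libraries, so they are not separate support. Those Treg-like classes were larger, 497 CD27_KO and 1444 WT cells with all barcodes for example, and took 35.5% to 57.0% of their CD27_KO cells and 36.3% to 70.6% of their WT cells from cluster 1. With a Foxp3 UMI in place of the cluster (317 CD27_KO and 608 WT cells) the count was 2 of 8, Jun (98.2 and 157 CPM; −0.68) and Atf3 (80.5 and 131 CPM; −0.70), while Fos was at 717 and 850 CPM (−0.24) and Fosl2 at 177 and 176 CPM. Of these Foxp3 cells, 54.3% in CD27_KO and 46.2% in WT lay in cluster 1. Cluster 1 itself is mixed, with Th2 as its next closest type and a Foxp3 UMI in 172 of 621 CD27_KO and 281 of 662 WT cells, so its sums do not compare Treg cells. In its cells with a Foxp3 UMI, 0 of 8 members were 1.5-fold apart: Fos was at 843 and 905 CPM (−0.10, −0.22 to 0.01), Atf3 at 102 and 123 CPM (−0.27, −0.60 to 0.050) and Jun at 100.4 and 146 CPM (−0.54, −0.86 to −0.23). Cluster 1 cells had medians of 5694 and 4745 UMIs, Treg-like cells 1887 and 1663, and the part of doublets in cluster 1 was not tested.

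**Figure D3:**
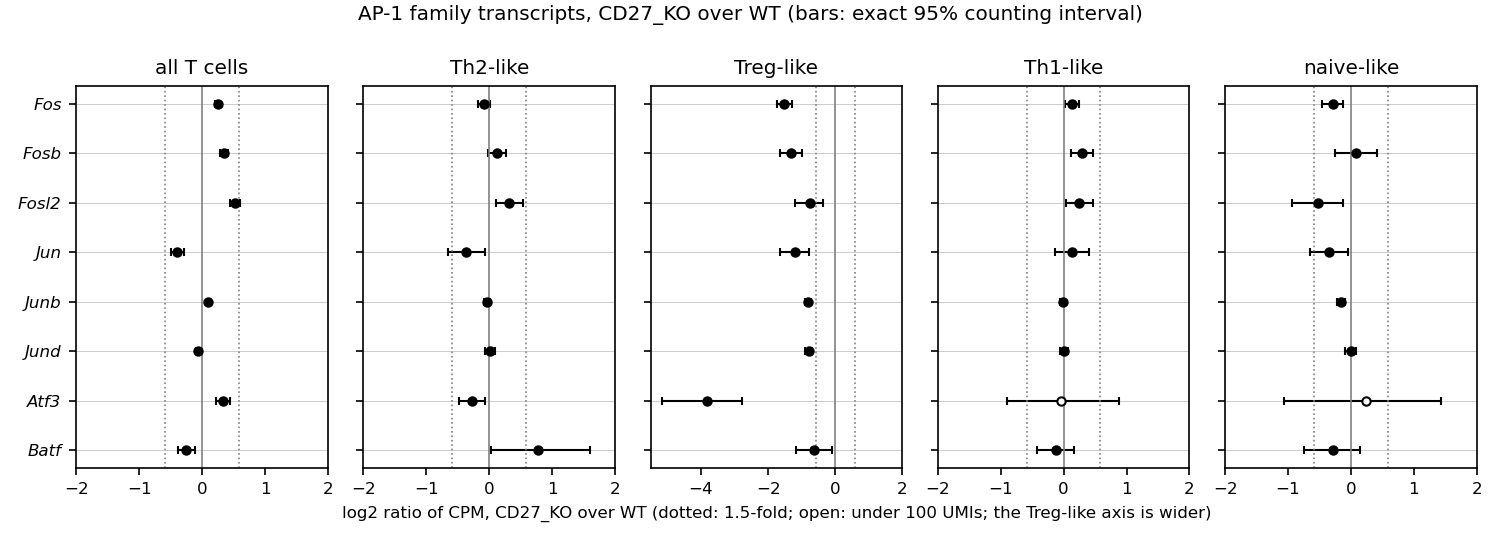
log2 ratio of CPM, CD27_KO over WT, of each member over all T cells and in 4 classes, with exact 95% counting intervals; dotted lines mark 1.5-fold and open points have under 100 UMIs. All 8 points lie left of the lower line in Treg-like cells (−0.63 to −3.83, the last for Atf3 on 7 CD27_KO UMIs), and none does in the other panels. The Treg-like clusters of resolution 1.5, which take in cells outside the class drawn here, are not shown. In them 0 of 3 measured, 1 of 8 and 4 of 8 members passed.

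Treg-like cells also differed between the libraries in Il1rl1, the gene of the IL-33 receptor ST2 that marks VAT Treg cells. An Il1rl1 UMI was seen in 22.4% of CD27_KO and 57.3% of WT Treg-like cells, at median depths of 1887 and 1663 UMIs. The members were higher in cells with an Il1rl1 UMI than in those without in each library. For Fos the log2 ratio of cells with over cells without was 1.52 in CD27_KO (1.09 to 1.95) and 0.92 in WT (0.74 to 1.09), and for Jund it was 1.01 and 0.78. For Fosl2, Jun and Batf the interval spanned 0 in at least 1 library.

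Split this way within the cluster, most members remained lower in CD27_KO. In cells with an Il1rl1 UMI, 63 in CD27_KO and 445 in WT, Fos was at 609 and 1083 CPM (−0.83), Atf3 at 40.6 and 223 CPM (−2.46) and Junb at 4135 and 5056 CPM (−0.29). In cells without one, 218 and 332, Fos was at 212 and 574 CPM (−1.44), Jun at 67.8 and 186 CPM (−1.45) and Atf3 at 2.19 and 76.5 CPM, on 1 and 47 UMIs. That CD27_KO level of Atf3 is at background, so no ratio is given. Batf was at 101 and 108 CPM with an Il1rl1 UMI and 50.3 and 79.7 CPM without one, with intervals of the ratio that span 0 in both.

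With the Foxp3 transcript in place of the cluster, the same split gave smaller differences in cells with an Il1rl1 UMI, which were 50.2% of the CD27_KO and 64.5% of the WT Foxp3 cells. These cells had median depths of 5528 UMIs in CD27_KO and 3890 in WT, and 76.7% and 58.7% of them lay in cluster 1. The part of depth and of cluster 1 in the smaller differences was not tested. Fos was at 905 and 970 CPM (−0.10, −0.21 to 0.01), Atf3 at 118 and 150 CPM (−0.34, −0.66 to −0.04) and Fosl2 at 222 and 195 CPM (0.19, −0.05 to 0.42), and Jun was the 1 of 8 past 1.5-fold (110 and 166 CPM; −0.595). In Foxp3 cells with no Il1rl1 UMI (158 and 216 cells) 1 of 6 measured members was, again Jun (75.6 and 131 CPM; −0.79). There Fos was at 351 and 475 CPM (−0.44), and Atf3 at 7.20 and 71.8 CPM on 4 and 45 UMIs. The CD27_KO level of Atf3 is again near background, so no ratio is given.

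**Figure D4:**
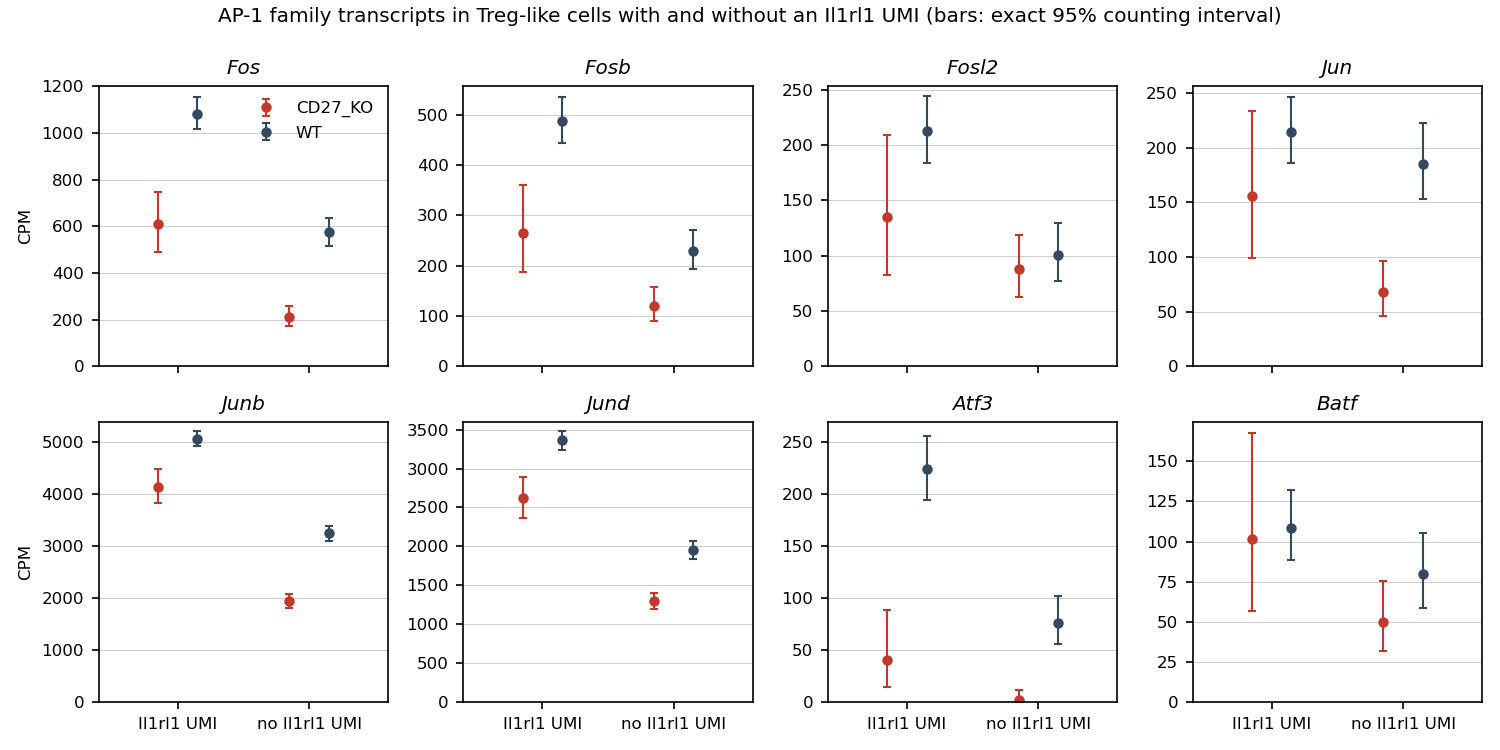
Level of each member in CPM in Treg-like cells with and without an Il1rl1 UMI, CD27_KO (red) left of WT (blue-grey), with exact 95% counting intervals. Both libraries are higher in cells with an Il1rl1 UMI, and the CD27_KO points lie below the WT points in all 16 pairs.

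In the other 3 classes the counts of members apart were near the share over all genes or below it, so they are no result about the members. In Th2-like cells 1 of 8 members was 1.5-fold apart, where 11.2% of genes were (8.56% higher and 2.59% lower): Batf, at 41.4 CPM in CD27_KO and 24.3 CPM in WT on 124 and 17 UMIs (0.77, 0.033 to 1.595). The count was 0 with all deposited barcodes, with members among the variable genes and at resolution 0.5. Fos (−0.09), Junb (−0.04) and Jund (0.01) were near equal there, Fosl2 was at 0.32 (0.10 to 0.54) and Jun at −0.37 (−0.66 to −0.07). In Th1-like cells 0 of 7 measured members were apart (8.18% of genes; 6.84% higher and 1.34% lower), from −0.13 for Batf to 0.29 for Fosb. The clusters of that class went different ways. Fos was at 336 CPM in CD27_KO and 239 CPM in WT in the Il18r1 cluster (778 and 267 cells; 0.49, 0.29 to 0.69), at 269 and 394 CPM in the P2rx7 cluster (1812 and 297 cells; −0.55, −0.77 to −0.32) and at 254 and 255 CPM in the Ly6c2 cluster (287 and 842 cells). In naive-like cells 0 of 7 were apart (9.49% of genes; 8.11% higher and 1.39% lower), with a median of −0.29 against a median gene of 0.18; Fosl2 was furthest, at 38.4 and 55.1 CPM (−0.52), and passed 1.5-fold once the ratio was taken relative to the median gene. Atf3 had under 100 UMIs in Th1-like and naive-like cells.

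Differences also stood in smaller groups, given here as values chosen after they were seen and without a share over all genes. Atf3 in cluster 11 was at 63.8 CPM in CD27_KO and 181 CPM in WT (−1.51, −2.03 to −0.97). In Th17-like cells (71 and 92) Fos was at 844 and 551 CPM (0.61, 0.27 to 0.96) and Fosb at 299 and 169 CPM (0.82, 0.22 to 1.44). In NK-receptor-like cells (139 and 369) Fosl2 was at 154 and 84.6 CPM (0.86, 0.36 to 1.37), and in interferon response-like cells (64 and 33) Jund was at 740.1 and 1131 CPM (−0.61, −1.03 to −0.19).

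The genes around AP-1 were followed in 8 lists, whose counts stand against 7.02% of all genes higher and 2.86% lower over all T cells. Counts of a few members in lists this short are a description, and nothing is read from them. Over all T cells, the kinases and serum response factors that switch on FOS and JUN genes held 0 of 16 measured members 1.5-fold apart, with Mapk3 at 0.46, Mapk14 at 0.39 and Srf at −0.04. Of other AP-1 and bZIP relatives, 1 of 11 was lower, Bach2, a repressor that competes for AP-1 sites (25.9 CPM in CD27_KO and 39.5 CPM in WT; −0.61), with Jdp2 at −0.27 and Bach1 at 0.54. Of the dual-specificity phosphatases, which switch off MAP kinases, 2 of 7 were higher, Dusp6 (65.3 and 32.1 CPM; 1.02) and Dusp5 (692 and 460 CPM; 0.59), and Dusp4 was lower (−0.77). Of the NFAT and IRF partners, 2 of 9 were higher, Irf8 (0.81) and Ikzf1 (0.59), and Irf4, the partner of BATF, was lower (11.5 and 21.7 CPM; −0.91).

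Among the cytokine and surface genes with AP-1 sites, 3 of 13 were higher, led by Il4 (55.0 and 11.1 CPM; 2.31), and 2 were lower, Tnfrsf9 (8.90 and 29.6 CPM; −1.73) and Ctla4 (−0.85). Of the T cell receptor induced genes outside AP-1, 3 of 15 were higher and 3 lower, and the lower ones were Tnfrsf9, Tnfrsf4 (−0.96) and Irf4. Of the other immediate early genes 2 of 19 were higher and 3 lower, Ier3 (−1.11), Klf2 (−0.87) and Socs3 (−0.60). Of the heat shock and stress genes 0 of 19 were higher and 3 lower: Mt2 (−1.62), Hspa1a (−1.56, on 39 and 92 UMIs) and Mt1 (23.8 and 69.8 CPM; −1.55). The list medians lay between −0.07 for heat shock and stress genes and 0.34 for NFAT and IRF partners, against 0.17 for the median gene.

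In Treg-like cells, where 6.01% of all genes were lower and 8.23% higher, the lists parted. They were summed over the whole class and not within the finer clusters. The T cell receptor induced genes were lower in 10 of 13 measured members (median −0.82), among them Nr4a3 (57.9 CPM in CD27_KO and 177 CPM in WT; −1.61), Nr4a1 (260 and 688 CPM; −1.41) and Nfkbia (1296 and 2340 CPM; −0.85). The other immediate early genes were lower in 9 of 16 (median −0.65), among them Gadd45b (817 CPM in CD27_KO and 2012 CPM in WT; −1.30) and Zfp36 (364 and 718 CPM; −0.98), and share Egr1 and Nfkbia with the list before. The heat shock and stress genes were lower in 1 of 13, Hspa5 (112 and 180 CPM; −0.68), with a median of −0.20. Maf, a bZIP factor of Treg and helper cells, was higher (1359 and 493 CPM; 1.46), and 6 of the 13 cytokine and surface genes were measured, of which 4 were lower (Il2ra, Cd69, Cd44 and Tnfrsf9). The median gene of the class was at 0.08. These examples were chosen after their values were seen.

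**Figure D5:**
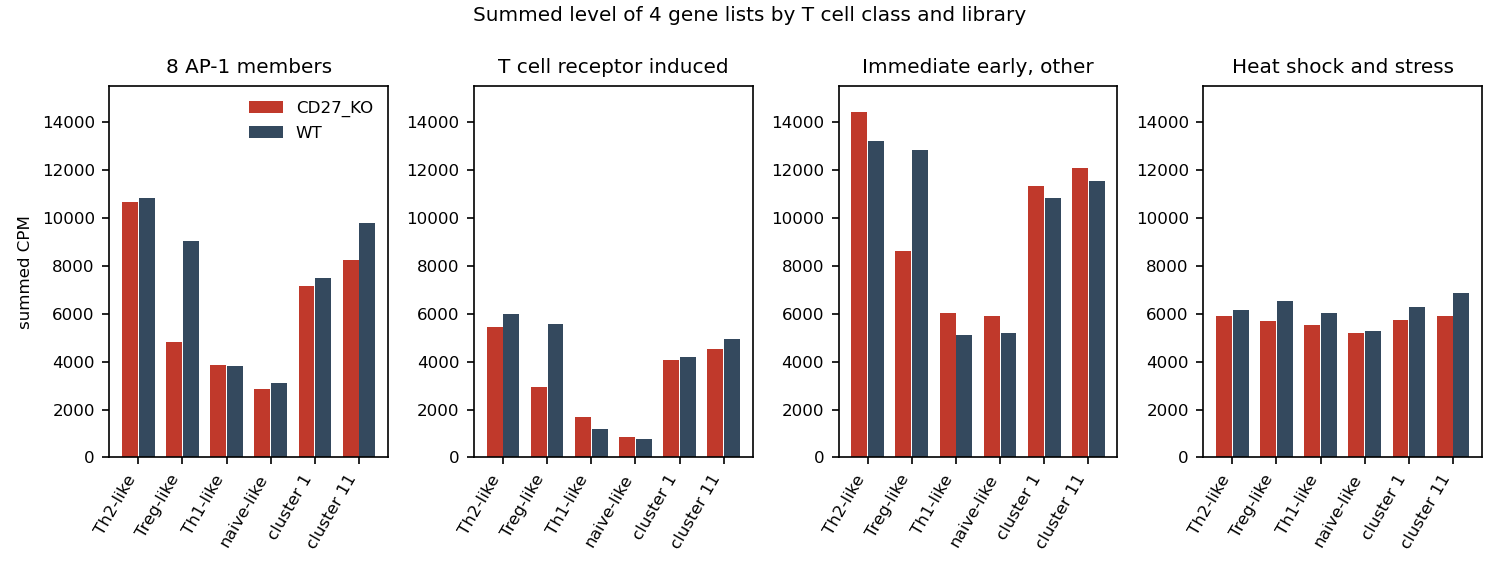
Summed CPM of the 8 members and of 3 gene lists by class, CD27_KO (red) left of WT (blue-grey), all on one scale from 0. The first 3 panels are high in Th2-like cells and clusters 1 and 11 and differ between the libraries in Treg-like cells, whereas heat shock and stress genes lie between 5210 and 6859 CPM in every bar.

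Values that bear on cell handling are given beside these levels, and the part of tissue dissociation in them was not tested. Summed over the 8 members, the level ran from 2842 CPM in CD27_KO and 3127 CPM in WT naive-like cells to 10661 and 10846 CPM in Th2-like cells. The other immediate early genes ran from 5910 and 5183 CPM to 14406 and 13188 CPM between the same classes, and the T cell receptor induced genes from 866 and 785 CPM to 5459 and 5967 CPM. The heat shock and stress genes were at 5210 and 5269 CPM in naive-like and 5886 and 6135 CPM in Th2-like cells. Ubb, Hspa8 and Hsp90ab1 give the most UMIs of that list, and the heat-inducible Hspa1a was at or below 8.74 CPM in the 4 named classes. In Treg-like cells it was at 0 UMIs in CD27_KO and at 2.59 CPM in WT, and Hspa1b was at 11.57 and 10.997 CPM.

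The members' levels went with measures of cell quality in part. Within each library, T cells of all classes together were cut into tertiles of their mitochondrial share, so class and quality are mixed. Naive-like cells, low in Fos, had the highest median mitochondrial share of the 4 named classes (3.72% in CD27_KO and 2.81% in WT). Cluster 1, high in Fos, had the most UMIs per cell (medians of 5694 and 4745). The part of class in the values below was not tested. Fos was at 792, 632 and 596 CPM from the lowest to the highest tertile in CD27_KO, and at 697, 573 and 423 CPM in WT. By UMIs per cell, Fos was at 489, 583 and 777 CPM in CD27_KO and at 478, 433 and 660 CPM in WT, again from lowest to highest. Batf stayed between 43.5 and 46.6 CPM over the depth tertiles in CD27_KO and between 52.7 and 54.9 CPM in WT. Treg-like cells had median mitochondrial shares of 2.87% in CD27_KO and 2.25% in WT, and Th2-like cells 2.81% and 2.23%. Marker lists of other cell types were summed in Treg-like cells, and their part in the members' levels was not tested: B cell markers were at 4.96 and 5.82 CPM, stromal markers at 8.26 and 9.06 CPM, dendritic or macrophage markers at 248 and 261 CPM, endothelial markers at 28.1 and 32.3 CPM, innate type 2 markers at 114 and 158 CPM, mast cell markers at 0 and 0.647 CPM and neutrophil markers at 0 and 1.29 CPM. In Th2-like cells innate type 2 markers were at 458 and 435 CPM and mast cell markers at 6.34 and 14.3 CPM.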

How the data were processed

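The deposited matrices hold UMI counts per gene and called cell, made by the authors with Cell Ranger 6.1.1 against mm10, per the file headers and the submitters' processing notes. An antibody feature had 0 UMIs in both libraries. The labels name 2 kit versions, and their genotype field is the same in each library; groups were taken from the titles. The members and gene lists were chosen with earlier results of these data known.

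Clustering used scanpy 1.11.5 with igraph 0.11.9 under Python 3.11.15, intervals scipy 1.17.1, and sequence searches BLAST 2.17.0. Barcodes under 500 genes or over 10% mitochondrial UMIs were dropped, 40 in CD27_KO and 60 in WT; no doublet caller was run. Counts were scaled to 10000 per cell, and 2000 variable genes, 30 principal components, 20 neighbours and Leiden at resolution 1 gave the clusters, without the members and the T cell receptor induced, immediate early and heat shock lists. A cluster took the type with the highest median marker ratio, given 3 or more markers enriched 1.5-fold, and stayed unnamed where another lymphocyte type came near; 65 CD27_KO and 136 WT cells of non-T clusters were left out. Ratios use summed UMIs, with exact conditional binomial, Poisson and Clopper-Pearson intervals at 95%. Apart means a ratio past 1.5-fold where the libraries together hold 100 UMIs or more. Genes named are the members, the 3 genes most like each (at least 500 UMIs) and the 3 furthest of each list. The ratio, interval and thinning steps were tested on simulated, independent counts. Clustering and class naming were not tested this way.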

Additional observations from a re-analysis of the deposited data

Results flagged for a closer look

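For 4 members the CD27_KO and WT libraries differed in opposite directions in 2 classes, with each counting interval on its own side of 0; the difference between the classes was not tested, since each class has 1 library per group. Fos had a log2 ratio of CD27_KO over WT of −1.51 in Treg-like and 0.13 in Th1-like cells. Fosb was at −1.31 in Treg-like and 0.29 in Th1-like cells. Fosl2 was at −0.76 in Treg-like cells, 0.25 in Th1-like and 0.32 in Th2-like cells. Batf was at −0.63 in Treg-like and 0.77 in Th2-like cells, the second on 124 CD27_KO and 17 WT UMIs. The Treg-like values depend on how the class is drawn: in the resolution 1.5 cluster led by Foxp3 and Ctla4, Fos was at −0.11 (−0.52 to 0.30). The median gene of the Th1-like class was at 0.15. Relative to it Fos was at −0.017 in Th1-like cells, so its direction there was no longer opposite. Fosb stayed at 0.14 and Fosl2 at 0.10.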

How the results depend on the processing

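No paired analysis was possible because each group has 1 library. The count over all T cells, 0 of 8, was 1 with each class at the same share in both libraries and 0 under the other 7 alternatives. The count of 8 of 8 in Treg-like cells, whose alternatives were chosen after seeing the data, was 4 with all barcodes, with at least 1000 genes and 5% mitochondrial UMIs, with members among the variable genes, at resolution 0.5 and at resolution 1.5, 2 with the Foxp3 transcript in place of the cluster, 4 with and 5 without an Il1rl1 UMI, 0 (of 3 measured), 1 and 4 in the 3 single Treg-like clusters at resolution 1.5, 0 in cluster 1 cells with a Foxp3 UMI, 1 and 1 in Foxp3 cells with and without an Il1rl1 UMI, 6 without the 1% of T cells richest in the member, and 8 under both other scalings. Of the single ratios in Treg-like cells, Fosl2 turned with the Foxp3 transcript (0.0043), in the Foxp3 and Ctla4 cluster (0.56), in Foxp3 cells of cluster 1 (0.21) and in Foxp3 cells with an Il1rl1 UMI (0.19). Jund turned in the Foxp3 and Ctla4 cluster (0.28), and Batf in the Cxcl2 and Ikzf2 cluster (0.012) and in Foxp3 cells of cluster 1 (0.031). Fos, Fosb, Jun, Junb and Atf3 stayed below 0 wherever a ratio could be had. Summed over the named classes, 9 of 32 pairs of member and class were apart, 8 in Treg-like and 1 in Th2-like cells. That sum is therefore no result beyond the Treg-like count. It ran from 4 to 10 under 8 alternatives, with 4 for all barcodes and 5 at resolution 1.5. The share over all genes was not taken for this sum or for the alternative ways of drawing Treg-like cells. The class range count, 8 of 8 in each library, was 4 to 7 in CD27_KO and 6 to 7 in WT under 6 alternatives. The 4 came under the strict cell filter, where Th2-like cells were left out. The count of shares with separate intervals, 3, was 6 without thinning. The cause was not tested. With 1 library per group, the number of UMIs sets only the counting error, and Atf3 was too sparse to place in Th1-like and naive-like cells.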

Other observations

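Outside the T cells, the stromal cluster (11 CD27_KO and 29 WT cells; led by Fabp4 and Dcn) had high Fos and Jun: Fos was at 1812 CPM in CD27_KO and 3309 CPM in WT, and Jun at 1136 and 1048 CPM, whereas Junb was at 1259 and 992 CPM. A small cluster that mixed B cell genes (Cd79a, Ebf1) with macrophage or dendritic genes (Retnla, Lyz2, C1qa; 27 and 52 cells) had Fos at 1124 and 960 CPM and Atf3 at 209 and 202 CPM. Plasmacytoid dendritic cells (27 and 55 cells) had Fos at 520 and 718 CPM. These cells are too few to compare the libraries.

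In naive-like cells, the Ccr7 cluster (317 CD27_KO and 1325 WT cells) had more Jun, at 101 and 124 CPM, than the Slamf6 cluster (438 and 881 cells), at 48.7 and 41.9 CPM, while Fosb was lower there, at 22.0 and 28.6 CPM against 89.3 and 98.1 CPM.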
